A study of Rattus norvegicus with 5 samples.

Results

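The cells described here are neutrophils of rat skin, 111 barcodes of the 43408 kept (0.256%) in 5 single-cell libraries. They were chosen by the levels of marker genes: a barcode was a member when S100a8 and S100a9, the subunits of calprotectin, together held at least 0.5% of its unique molecular identifiers (UMIs), when it had at least 1 UMI of Csf3r (the receptor for granulocyte colony-stimulating factor) or Cxcr2 (a receptor for neutrophil-attracting chemokines), when it had no UMI of C1qa, C1qb or C1qc (macrophage genes) or of Cd3d, Cd3e or Cd3g (T cell genes), and when Krt1, Krt5, Krt10, Krt14, Krt15 and Krt17 together held under 1% of its UMIs. A barcode was kept with 500 UMIs and 300 genes or more, and with no more than 20% of its UMIs from mitochondrial genes. The levels of these genes are therefore a description of the choice and not a result.

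Skin of Sprague-Dawley (SD) rats was measured in 1 control library and in 1 library each at 7, 14, 28 and 60 days (d) after irradiation, with droplet libraries of transcript 3' ends. Per the study's methods, male rats received a single dose of electron-beam radiation on shaved skin of the buttock, control skin received none, and the 60 d library is not described there. How many animals went into a library is not given in the sources used here. With 1 library per group, a difference between libraries has no replicate check and no test was run. All intervals are exact 95% intervals of counting error, and UMIs of 1 cell are not independent of each other.

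Neutrophils are short-lived granulocytes that leave the blood for injured or infected tissue, where they kill microbes with granule proteins, proteases and reactive oxygen. They follow chemokines of the CXC family, make cytokines such as interleukin-1, and are themselves a source of chemokines that draw in further cells. They hold little RNA, so in droplet data they tend to give few UMIs per cell.

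Before the results, some facts of the libraries bear on them. The libraries held 6012 to 12239 barcodes with medians of 5656 to 13229.5 UMIs among kept barcodes, and 11 to 41 barcode sequences were shared between any pair of libraries. The 14 d library stood apart, since 25.5% of its barcodes exceeded 20% mitochondrial UMIs, against 6.40% to 14.1% elsewhere. No doublet caller was run, and the rule itself dropped barcodes with C1q, Cd3 or much keratin RNA. In the 14 d library 53 otherwise matching barcodes were excluded with keratins at 3% or more of UMIs. Their median was 49258 UMIs, and 1 of them had a UMI of G0s2, an inhibitor of fat breakdown that was seen in nearly every member. At that depth 51 of the 53 had at least 3 of the other neutrophil genes described below. In the 28 d library 17 barcodes were excluded with keratins between 1% and 3%. Their median was 916 UMIs and 15 of them had a G0s2 UMI, so the keratin limit removed barcodes there that otherwise looked like members. Keratins of the rule held a median of 0.784% of UMIs in the 28 d members, close to that limit.

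Members were shallow cells. Their median depth was 1817 UMIs in control, 2912 UMIs at 7 d, 1869 UMIs at 14 d, 1147 UMIs at 28 d and 1482 UMIs at 60 d, each below the median of all kept barcodes of the same library. Together S100a8 and S100a9 held 0.570% to 24.9% of a member's UMIs (median 5.45%), with the highest library median at 7 d (9.98%), against 7.93% in control, and the lowest at 60 d (2.33%). The member nearest to the limit had 0.570%, and the nearest receptor-positive barcode outside it had 0.454%. Csf3r was seen in 99 members, Cxcr2 in 19 and both in 7, and 73 members had a single receptor UMI. The plot of UMIs against the S100 share shows 1 member of the 7 d library far to the right, with 21970 UMIs, which is 33.0% of all UMIs of the 7 d members. That barcode was also collagen-rich, and the highest collagen share of any member, 13.2%, was in another barcode of the 7 d library. Several 7 d levels and list medians are therefore also given without the collagen-rich members of both libraries. Such members had at least 1% of UMIs from Col1a1, Col3a1 and Dcn, which are fibroblast genes. There were 3 of these in control, 3 at 7 d and 1 at 14 d. Without them 36308 of 66481 UMIs remained at 7 d and 53702 of 59466 UMIs in control. Other 7 d levels below are over all members.

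**Figure D1:**
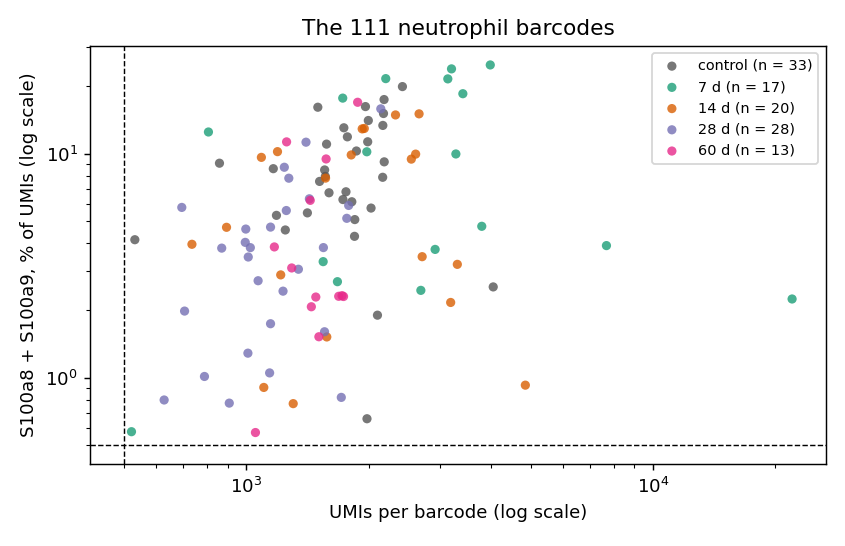
Each point is 1 of the 111 neutrophil barcodes, coloured by library, with its UMIs on the x axis and the percentage of UMIs from S100a8 and S100a9 on the y axis (both log scales). Dashed lines mark the limits of 500 UMIs and 0.5%, and the point at 21970 UMIs is the deepest collagen-rich member of the 7 d library.

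The label was checked with 28 other neutrophil genes that the rule did not use. At least 3 of them were seen in 110 of 111 members, with library medians of 7.5 to 10 genes. After each cell was thinned to 500 UMIs, at least 3 were seen in all members of control, 7 d and 28 d, in 17 of 20 members of 14 d and in 10 of 13 members of 60 d. The same share was 0% to 2.63% in the C1q-positive, Cd3-positive, keratin-rich and collagen-rich cells of the 5 libraries. Members of every library thus carried neutrophil genes that had no part in their selection.

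Genes of some other cell types were at or near 0, and those of others were not. No UMI of the 5 B cell markers found was seen in any member, 9 of 12 T and NK cell markers were at 0, and mast cell markers had 3 UMIs in all. Eosinophil markers had 10 UMIs in all, 24.7 to 67.3 CPM in members against 0.336 to 1.34 CPM in other kept barcodes. Dendritic cell markers had 2836 CPM in members at 14 d, against 543 CPM in other barcodes. In each other library they had 0 to 444 CPM, below the other barcodes. Of the 13 monocyte and macrophage genes found, 5 were at 0 in all members, among them Cd163, Adgre1 and Cx3cr1, and the others were detected. The list summed to 17052 CPM (UMIs scaled to a total of 1000000) in control, 4904 CPM at 7 d, 3823 CPM at 14 d, 11209 CPM at 28 d and 23396 CPM at 60 d, most of it Lyz2, which neutrophils share. Fibroblast genes held 11183 CPM in control, 46871 CPM at 7 d, 2836 CPM at 14 d, 621 CPM at 28 d and 416 CPM at 60 d. The other kept barcodes of the same libraries had 36019 CPM in control, 59559 CPM at 7 d, 951 CPM at 14 d, 4263 CPM at 28 d and 3901 CPM at 60 d, also highest at 7 d. Of the plasmacytoid dendritic cell list Siglech, Bcl11a and Ccr9 were at 0, and its sum of 3305 to 7870 CPM was mostly Tyrobp, a signalling adaptor that myeloid cells share. Keratinocyte genes outside the rule held 963 to 2484 CPM in members and 6661 to 29345 CPM in other barcodes. The part of such foreign RNA in the results below was not tested, except where values without the collagen-rich members are given.

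Genes that set members apart from macrophages are given as a description, and no gene category was tested. Set against C1q-positive cells, genes furthest above them included Retnlg (a resistin-like protein), Pglyrp1 (a peptidoglycan-binding granule protein), G0s2, Ifit1bl, Lrg1, Mcemp1, Chi3l1, Acod1 (the enzyme that makes itaconate), Slpi (an inhibitor of neutrophil proteases), Clec4d (a receptor for fungal and mycobacterial lipids) and Dgat2 (an enzyme of triglyceride synthesis). G0s2 had 16127 CPM in control, 17178 CPM at 7 d, 13516 CPM at 14 d, 19491 CPM at 28 d and 20589 CPM at 60 d, and was seen in 110 members. Its level in C1q-positive cells was 37.3 CPM. None of the irradiated libraries was 2-fold from control for G0s2. Retnlg, the gene furthest above C1q-positive cells, was seen in only 20 members.

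Primary granule genes were nearly silent. Of 10 listed, Mpo (myeloperoxidase), Prtn3, Ctsg and 6 others had no UMI in any member, and Elane (neutrophil elastase) was seen in 6 members. Secondary granule genes were mixed. Chi3l1, a chitinase-like protein, had 1362 CPM in control, 587 CPM at 7 d, 567 CPM at 14 d, 1272 CPM at 28 d and 1196 CPM at 60 d and was seen in 76 members. Its log2 ratio at 7 d was -1.22, and -0.59 without the collagen-rich members. Mmp8 (neutrophil collagenase) had 723 CPM in control. Ltf, Ngp, Cd177, Olfm4, Fcnb and Orm1 were at 0, and Lcn2 was at 84.1 CPM in control, 59.2 CPM at 28 d and 0 in the other libraries. Camp (the cathelicidin precursor) was seen in 12 members of control, 6 members of 7 d, 3 of 14 d, 4 of 28 d and 2 of 60 d. Granule genes of this kind are transcribed early in neutrophil formation, in the marrow. The receptors for formyl peptides, Fpr1 and Fpr2, had at most 1 UMI per library, and Itgam was not analysed here.

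Neutrophils made up 0.325% of kept barcodes in control (33 members, interval 0.224 to 0.456). They made up 0.150% at 7 d (17 members, 0.0876 to 0.241) and 0.458% at 14 d (20 members, 0.280 to 0.706). At 28 d the share was 0.310% (28 members, 0.206 to 0.448), and at 60 d it was 0.152% (13 members, 0.0810 to 0.260). The share was 0.175 points lower at 7 d than in control (difference -0.175, interval -0.320 to -0.0390) and 0.173 points lower at 60 d (-0.173, -0.322 to -0.0251). At 14 d (0.133 points, -0.0884 to 0.401) and 28 d (-0.0151 points, -0.182 to 0.156) the interval of the difference from control included 0. A share of barcodes moves with every other cell type recovered, so fewer neutrophils and more of other cells cannot be told apart.

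The size of these differences depended on the condition on receptor UMIs. Without it, and with S100a8 and S100a9 at 2% or more of UMIs, control had 66 barcodes (0.650%), the 7 d library 30 (0.265%), the 14 d library 70 (1.60%), the 28 d library 86 (0.952%) and the 60 d library 14 (0.164%). All of these had at least 3 of the other neutrophil genes. Under that setting, chosen after seeing the data, 14 d was 0.952 points above control and 28 d was 0.302 points above it, while 7 d (-0.385 points) and 60 d (-0.486 points) stayed below control. The 14 d library was highest with and without the condition. With every cell thinned to 500 UMIs before the rule was applied it was not: the shares were 0.128% in control (13 barcodes), 0.0531% at 7 d (6 barcodes), 0.114% at 14 d (5 barcodes), 0.155% at 28 d (14 barcodes) and 0.0585% at 60 d (5 barcodes). With keratins under 3% of UMIs, also chosen after seeing the data, the 28 d share was 0.498% (45 barcodes), above 0.458% at 14 d (20 barcodes).

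**Figure D2:**
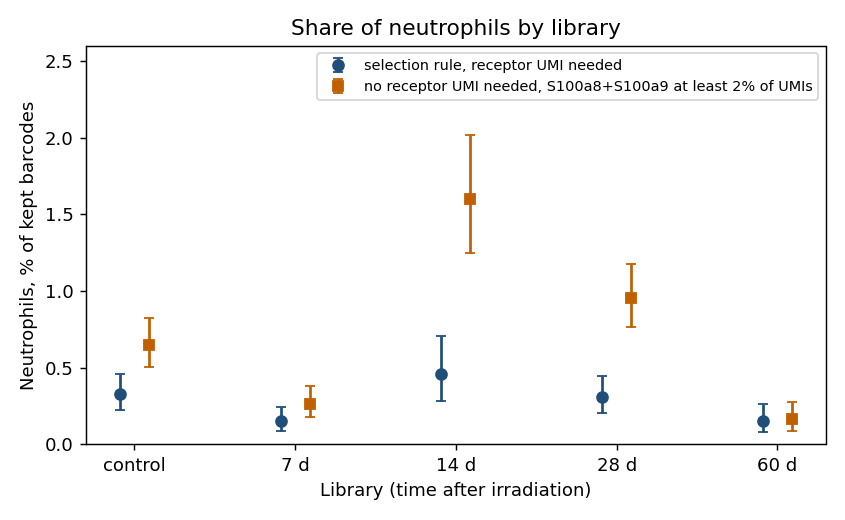
Share of neutrophils among kept barcodes (y axis, percent) in each library (x axis), with exact 95% binomial intervals. Circles follow the selection rule (0.325% in control, 0.458% at 14 d), and squares drop the receptor condition and ask for 2% S100a8 and S100a9 (0.650% in control, 1.60% at 14 d).

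Gene levels were compared in CPM over the summed UMIs of the members of a library, for genes with at least 30 UMIs over both libraries. A gene was counted as higher or lower at a 2-fold difference. The comparison had been planned only for libraries with at least 30 members, which no irradiated library reached, and was therefore made after seeing the data with 13 to 28 members against 33. Over all genes tested, 18.8% were at least 2-fold higher and 17.5% at least 2-fold lower at 7 d than in control, of 542 genes. The same shares were 20.2% and 23.9% of 435 genes at 14 d, 13.4% and 20.8% of 395 genes at 28 d, and 11.7% and 22.8% of 351 genes at 60 d, so the list counts below are to be read against these. The median log2 ratio of all genes tested lay between -0.31 (28 d) and -0.12 (14 d).

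Genes induced by interferon were higher in neutrophils at 7, 14 and 60 d, and not at 28 d. At 7 d 9 of 11 tested genes of the list were at least 2-fold higher (18.8% over all genes) and none was lower, with a median log2 ratio of 1.79. At 14 d 7 of 10 were higher (20.2% over all genes; median 2.34), and at 60 d 4 of 7 (11.7% over all genes; median 2.37). At 28 d none of 4 was higher and 1 was lower (13.4% and 20.8% over all genes; median -0.65). With 4 genes these counts cannot be told from the shares over all genes. The medians rest on genes of few UMIs, and with at least 100 UMIs over both libraries they were 0.48 over 3 genes at 14 d and 0.34 over 3 genes at 60 d, where only Isg15 passed 2-fold. Without the collagen-rich members 6 of 9 genes were higher at 7 d (median 1.89). Without the receptor condition (S100a8 and S100a9 at 2% or more) the medians were 1.80 (7 d), 1.42 (14 d), -0.34 (28 d) and 1.20 (60 d). Summed, the list had 21089 CPM in members at 7 d against 8677 CPM in control. In other kept barcodes it had 7668 CPM at 7 d against 2993 CPM in control, so both were higher at 7 d. Other barcodes had 3485 CPM at 14 d, 2148 CPM at 28 d and 2349 CPM at 60 d.

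Isg15, a ubiquitin-like protein that interferon induces, was 2-fold higher at 7, 14 and 60 d. It had 1059 CPM in control, 6152 CPM at 7 d, 7498 CPM at 14 d, 621 CPM at 28 d and 5459 CPM at 60 d. The level was 5.81-fold that of control at 7 d (4.45 to 7.70), 7.08-fold at 14 d (5.38 to 9.44), 0.586-fold at 28 d (0.340 to 0.974) and 5.15-fold at 60 d (3.74 to 7.16). At an equal depth of 500 UMIs per cell, an Isg15 UMI was seen in 27.3% of control members, 88.2% of 7 d members, 85.0% of 14 d members, 10.7% of 28 d members and 69.2% of 60 d members. The 28 d library thus lay below control, and the other irradiated libraries lay above it. Isg15 had 9034 CPM at 7 d without the collagen-rich members, against 1155 CPM in control. In the other kept barcodes Isg15 had 12.2 to 162 CPM, and in C1q-positive cells 20.01 to 323 CPM, below the members of each library. In Cd3-positive cells thinned in the same way 0% to 5.26% had an Isg15 UMI.

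Other genes of the list followed Isg15 only in part, since Oas1a and Isg20 lay above control at 28 d. Ifi27l2b had 353 CPM in control, 3354 CPM at 7 d, 1924 CPM at 14 d, 237 CPM at 28 d and 2184 CPM at 60 d. Oas1a, a sensor of double-stranded RNA, had 168 CPM in control, 767 CPM at 7 d, 789 CPM at 14 d, 355 CPM at 28 d and 1040 CPM at 60 d. Isg20, an exonuclease, had 67.3 CPM in control, 496 CPM at 7 d, 641 CPM at 14 d, 148 CPM at 28 d and 104 CPM at 60 d, so it was high at 7 and 14 d and not at 60 d. Rtp4 had no UMI in control (where the floor of 3 counts is 50.4 CPM), 301 CPM at 7 d and 271 CPM at 14 d, and no UMI at 28 or 60 d. Ifit3, a member of a family of antiviral proteins, had 3246 CPM in control, 2076 CPM at 7 d, 2590 CPM at 14 d, 2248 CPM at 28 d and 4107 CPM at 60 d, none of them 2-fold from control.

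Promoters of list genes were read from RefSeq (rat build GRCr8, 250 bases before to 50 after the gene's start) to show what Oas1a, which was higher at 7, 14 and 60 d, and Ifit3, which was already high in control, hold in common. The core of the interferon-stimulated response element, GAAANNGAAA, searched on both strands, was in 18 of 27 promoters of the interferon list and in 3.92% of 33469 promoters of all genes. Capitals mark the matches, which begin 41 and 35 bases before the start of Oas1a, overlapping each other, and 44 bases before that of Ifit3, there on the other strand. A match is a description of the letters and not of binding.
Oas1a, chr12:41330216-41330515, plus strand: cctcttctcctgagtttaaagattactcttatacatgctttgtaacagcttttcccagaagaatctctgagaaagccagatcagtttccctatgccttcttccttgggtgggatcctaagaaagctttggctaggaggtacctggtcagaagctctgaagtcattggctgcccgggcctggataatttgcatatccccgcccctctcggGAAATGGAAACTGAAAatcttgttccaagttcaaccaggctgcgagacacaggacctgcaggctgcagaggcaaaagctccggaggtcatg
Ifit3, chr1:241527076-241527375, plus strand: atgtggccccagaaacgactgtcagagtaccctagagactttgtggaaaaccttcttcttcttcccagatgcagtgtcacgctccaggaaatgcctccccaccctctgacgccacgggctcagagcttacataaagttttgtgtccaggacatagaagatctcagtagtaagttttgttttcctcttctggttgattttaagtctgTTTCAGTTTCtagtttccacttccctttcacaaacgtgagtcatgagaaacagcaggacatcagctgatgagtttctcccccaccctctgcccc

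Chemokines and cytokines differed from gene to gene. Cxcl2, a ligand of Cxcr2 and so an attractant of neutrophils themselves, had 14126 CPM in control, 27752 CPM at 7 d, 41238 CPM at 14 d, 37355 CPM at 28 d and 24748 CPM at 60 d. It was 1.96-fold the control level at 7 d (1.81 to 2.13), 2.92-fold at 14 d (2.69 to 3.18), 2.64-fold at 28 d (2.42 to 2.89) and 1.75-fold at 60 d (1.56 to 1.96). All irradiated libraries lay above control, and Cxcl2 was seen in 107 of the 111 members. One member held 510 of its 1672 UMIs at 14 d. In other kept barcodes Cxcl2 had 29.9 to 574 CPM. Without the collagen-rich members the 7 d level was 48033 CPM against 14953 CPM in control, a larger difference than over all members.

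Il1b, the interleukin-1 beta gene, had 5314 CPM in control, 6573 CPM at 7 d, 13960 CPM at 14 d, 7010 CPM at 28 d and 10502 CPM at 60 d. The level at 14 d was 2.63-fold that of control (2.29 to 3.02) and at 60 d 1.98-fold (1.65 to 2.37). Cxcl3, another ligand of Cxcr2, was a gene of the 14 d library, with 7596 CPM there in 11 of 20 members, against 370 CPM in 6 of 33 in control (20.5-fold, 13.3 to 33.2). One member held 152 of its 308 UMIs at 14 d. At 60 d Cxcl3 had 0 of 19234 UMIs, with an interval up to 192 CPM. Cxcl3 is close in sequence to Cxcl2, and how reads that both share entered the counts was not examined here.

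Ccl3, an attractant of monocytes and T cells, was highest at 14 d, where 1 member held 197 of 456 UMIs. It had 3935 CPM in control, 2301 CPM at 7 d, 11247 CPM at 14 d, 6921 CPM at 28 d and 1352 CPM at 60 d. Il1rn, the antagonist of the interleukin-1 receptor, had 1833 CPM in control, 707 CPM at 7 d, 2935 CPM at 14 d, 2425 CPM at 28 d and 312 CPM at 60 d. For both genes the 60 d library lay below control and the 14 d library lay above it. At 7 d both were lower over all members, but without the collagen-rich members Ccl3 had 4049 CPM at 7 d against 4283 CPM in control (log2 ratio -0.08). Osm (oncostatin M, a cytokine of the interleukin-6 family) had 151 CPM in control, 436 CPM at 7 d, 839 CPM at 14 d, 917 CPM at 28 d and 1144 CPM at 60 d, and was 2.88-fold to 7.56-fold control with every interval above 1. It was seen in 9 of 13 members at 60 d, against 6 of 33 in control. Over the whole cytokine list 2 of 11 tested genes were higher and 3 lower at 7 d (18.8% and 17.5% over all genes), and 6 of 11 were higher and 2 lower at 14 d (20.2% and 23.9%). At 28 d 3 of 10 were higher and 1 lower (13.4% and 20.8%), and at 60 d 1 of 9 was higher and 4 were lower (11.7% and 22.8%). At 7 d the share of higher genes was that of all genes. The list medians were -0.37 (7 d), 1.39 (14 d), 0.40 (28 d) and -0.20 (60 d). Tnf had no UMI in any member.

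Ccl6, a CC chemokine of rodent myeloid cells, fell at 7 d and 14 d. It had 5297 CPM in control, 617 CPM at 7 d, 518 CPM at 14 d, 2691 CPM at 28 d and 4627 CPM at 60 d. At 500 UMIs per cell, a Ccl6 UMI was seen in 90.9% of control members, 5.88% of 7 d members, 4 of 20 members of 14 d, 75.0% of 28 d members and 76.9% of 60 d members. The low libraries at equal depth were therefore the same as by level. The level was 0.116-fold that of control at 7 d (0.0819 to 0.162), 0.0978-fold at 14 d (0.0597 to 0.152), 0.508-fold at 28 d (0.398 to 0.643) and 0.874-fold at 60 d (0.682 to 1.11). A single 7 d member held 25 of the 41 UMIs there, and without the collagen-rich members the log2 ratio at 7 d was -2.48. Lyz2 (lysozyme) was low in the same libraries, with 15101 CPM in control, 3866 CPM at 7 d, 3108 CPM at 14 d, 10233 CPM at 28 d and 22096 CPM at 60 d. Other kept barcodes had 27.0 to 140 CPM of Lyz2 and 4.09 to 27.8 CPM of Ccl6.

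Other genes of mature neutrophils differed in their order. Over the list of other neutrophil genes, 5 of 15 tested were lower and 1 higher at 7 d (17.5% and 18.8% over all genes; median -0.83), and 4 of 14 were lower and 1 higher at 14 d (23.9% and 20.2%; -0.75). At 28 d 1 of 13 was lower and 1 higher (20.8% and 13.4%; -0.36), and at 60 d 3 of 14 were lower and 1 higher (22.8% and 11.7%; -0.76). The 7 d median was -0.47 without the collagen-rich members, with 4 of 13 lower. Slpi had 5247 CPM in control, 3806 CPM at 7 d, 10408 CPM at 14 d, 12599 CPM at 28 d and 3275 CPM at 60 d, high at 14 and 28 d. At 7 d Slpi had 6830.5 CPM without the collagen-rich members, against 5624 CPM in control. Mmp8 had 723 CPM in control, 90.3 CPM at 7 d, 370 CPM at 14 d, 562 CPM at 28 d and 728 CPM at 60 d. It was at least 2-fold lower only at 7 d, and at 14 d it was 0.512-fold control (0.264 to 0.939). Mmp8 at equal depth was seen in 18.2% of members in control, 11.8% at 7 d and 4 of 20 at 14 d. The same share was 7.14% at 28 d and 15.4% at 60 d. At 14 d Mmp8 was thus not below control at equal depth, unlike Ccl6. Retnlg was uneven from cell to cell: in control 2 members held all 102 UMIs, 98 of them in 1 cell, whereas at 7 d 11 of 17 members had a UMI. At equal depth Retnlg was seen in 6.06% of members in control, 41.2% at 7 d, none at 14 or 28 d and 15.4% at 60 d. Its summed level was 1609 CPM at 7 d against 1715 CPM in control, nearly equal although the cells with a UMI were not.

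**Figure D3:**
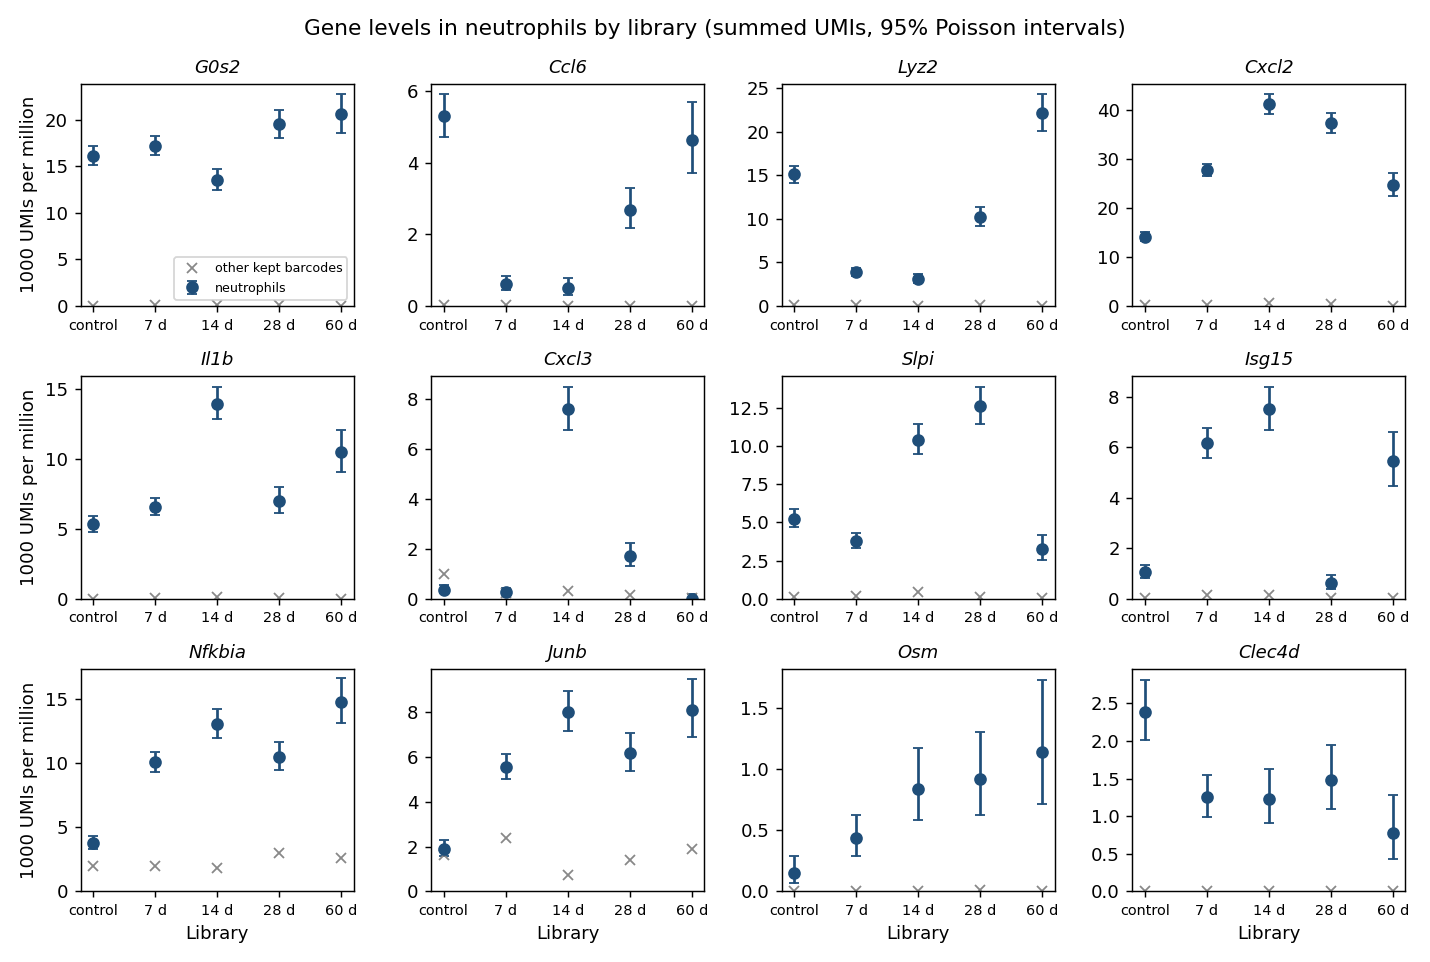
Level in neutrophils (circles, 1000 CPM on the y axis, summed over members, with exact 95% Poisson intervals) and in other kept barcodes (crosses) of 12 genes, by library on the x axis. Ccl6 and Lyz2 dip at 7 and 14 d, Cxcl2 and Nfkbia are above control in each irradiated library, and Isg15 is high at 7, 14 and 60 d but not at 28 d.

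Genes of the NF-kB response were more often higher than lower in each irradiated library. At 7 d 6 of 11 tested genes were at least 2-fold higher (18.8% over all genes; median log2 ratio 1.38), at 14 d 8 of 10 (20.2%; 1.83), at 28 d 5 of 7 (13.4%; 1.48) and at 60 d 4 of 7, with 1 lower (11.7% and 22.8%; 1.42). With at least 100 UMIs the medians were 0.63 at 28 d and 0.16 at 60 d, over 2 genes each. Without the receptor condition 6 of 12 were higher and 1 lower at 28 d (median 0.97), and 5 of 11 were higher and 3 lower at 60 d (0.68). At 7 d 8 of 10 were higher without the collagen-rich members (1.61). Nfkbia, the inhibitor that NF-kB itself induces, had 3800 CPM in control, 10063 CPM at 7 d, 13023 CPM at 14 d, 10500 CPM at 28 d and 14766 CPM at 60 d. It was 2.65-fold to 3.89-fold control, with the lowest interval bound at 2.27, and had 1855 to 2988 CPM in other barcodes. Zfp36 (an RNA-binding protein that destabilizes cytokine messages) had 420 CPM in control, 2046 CPM at 7 d, 2417 CPM at 14 d, 1863 CPM at 28 d and 2236 CPM at 60 d.

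Members of the list differed among themselves. Ptgs2, the inducible cyclooxygenase, had 404 CPM in control, 1248 CPM at 7 d, 2121 CPM at 14 d, 1834 CPM at 28 d and 1456 CPM at 60 d, above control throughout. Acod1 was a gene of 14 d, with 2244 CPM there in 18 of 20 members, against 286 CPM in 9 of 33 in control (7.85-fold, 4.64 to 14.1). Its log2 ratio at 7 d was 0.80, and 1.43 without the collagen-rich members. Ier3 had 320 CPM in control, 1399 CPM at 7 d, 2762 CPM at 14 d, 1952 CPM at 28 d and 624 CPM at 60 d. Sod2, the mitochondrial superoxide dismutase, had 9417 CPM in control and 8017 to 8163 CPM at 7, 14 and 28 d, but 3015 CPM at 60 d, 0.320-fold control (0.240 to 0.420). Nlrp3, the inflammasome sensor, had 370 CPM in control, 466 CPM at 7 d, 814 CPM at 14 d, 1035 CPM at 28 d and 988 CPM at 60 d.

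The promoters of Cxcl2 and Nfkbia, both above control in every irradiated library, are shown as examples that hold a match to the motif below. Whether a match goes with a higher level was not tested. An NF-kB type motif, GGGNNTTTCC, searched on both strands, was in 5 of 18 promoters of the NF-kB list, 5 of 16 of the cytokine list and 1.53% of all 33469. Capitals mark matches that begin 74 and 54 bases before the start of Cxcl2, and 31 bases before that of Nfkbia on the other strand. The Isg15 promoter was not analysed here.
Cxcl2, chr14:17467206-17467505, minus strand: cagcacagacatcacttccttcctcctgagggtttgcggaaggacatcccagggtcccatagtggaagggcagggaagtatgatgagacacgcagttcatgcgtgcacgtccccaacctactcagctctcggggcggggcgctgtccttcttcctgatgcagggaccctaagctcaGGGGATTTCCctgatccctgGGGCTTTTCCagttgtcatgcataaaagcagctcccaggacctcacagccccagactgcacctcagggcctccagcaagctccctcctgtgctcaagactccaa
Nfkbia, chr6:78597023-78597322, minus strand: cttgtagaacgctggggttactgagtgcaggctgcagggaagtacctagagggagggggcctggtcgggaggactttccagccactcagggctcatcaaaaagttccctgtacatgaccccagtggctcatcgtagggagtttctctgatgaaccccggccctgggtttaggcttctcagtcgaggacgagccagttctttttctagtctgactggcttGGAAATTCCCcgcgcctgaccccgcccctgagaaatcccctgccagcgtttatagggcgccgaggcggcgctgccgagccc

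Immediate early genes, transcription factors and phosphatases induced within minutes of a stimulus, were also higher after irradiation. At 7 d 8 of 14 tested genes were at least 2-fold higher (18.8% over all genes; median 1.46), at 14 d 7 of 12 (20.2%; 1.73), at 28 d 7 of 13, with 1 lower (13.4% and 20.8%; 1.19), and at 60 d 8 of 12, with 1 lower (11.7% and 22.8%; 1.89). Without the collagen-rich members the median was 0.78 at 14 d, with 5 of 12 higher, and 1.61 at 7 d, with 6 of 11 higher. Junb had 1900 CPM in control, 5550 CPM at 7 d, 8016 CPM at 14 d, 6181 CPM at 28 d and 8111 CPM at 60 d, and was seen in 106 of 111 members. Fosb had 521 CPM in control, 6017 CPM at 7 d, 1776 CPM at 14 d, 3963 CPM at 28 d and 8994 CPM at 60 d. For Fosb 262 of the 400 UMIs at 7 d came from 1 collagen-rich member, and without such members it had 2975 CPM at 7 d against 503 CPM in control. At 14 d 1 member held 44 of 72 Fosb UMIs, and without the collagen-rich members the level was 749 CPM at 14 d (log2 ratio 0.58 in place of 1.77).

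Other cells carried these genes too. In other kept barcodes the summed list had 19765 CPM in control, 32232 CPM at 7 d, 7842 CPM at 14 d, 16199 CPM at 28 d and 20234 CPM at 60 d. In members it had 12764 CPM in control, 40508 CPM at 7 d, 27895 CPM at 14 d, 26766 CPM at 28 d and 43465 CPM at 60 d. At 14 d members were thus above control members while other barcodes were below control barcodes. Fosb at equal depth was seen in 24.2% of control members, 58.8% of 7 d members, 15.0% of 14 d members, 67.9% of 28 d members and 84.6% of 60 d members, so at 14 d it was not above control. It was seen in 13.7% to 73.2% of Cd3-positive and 47.3% to 82.8% of collagen-rich cells, and the share in members exceeded both in the same library only at 60 d. Such genes also respond to tissue dissociation, and irradiation and handling of each library cannot be told apart.

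**Figure D4:**
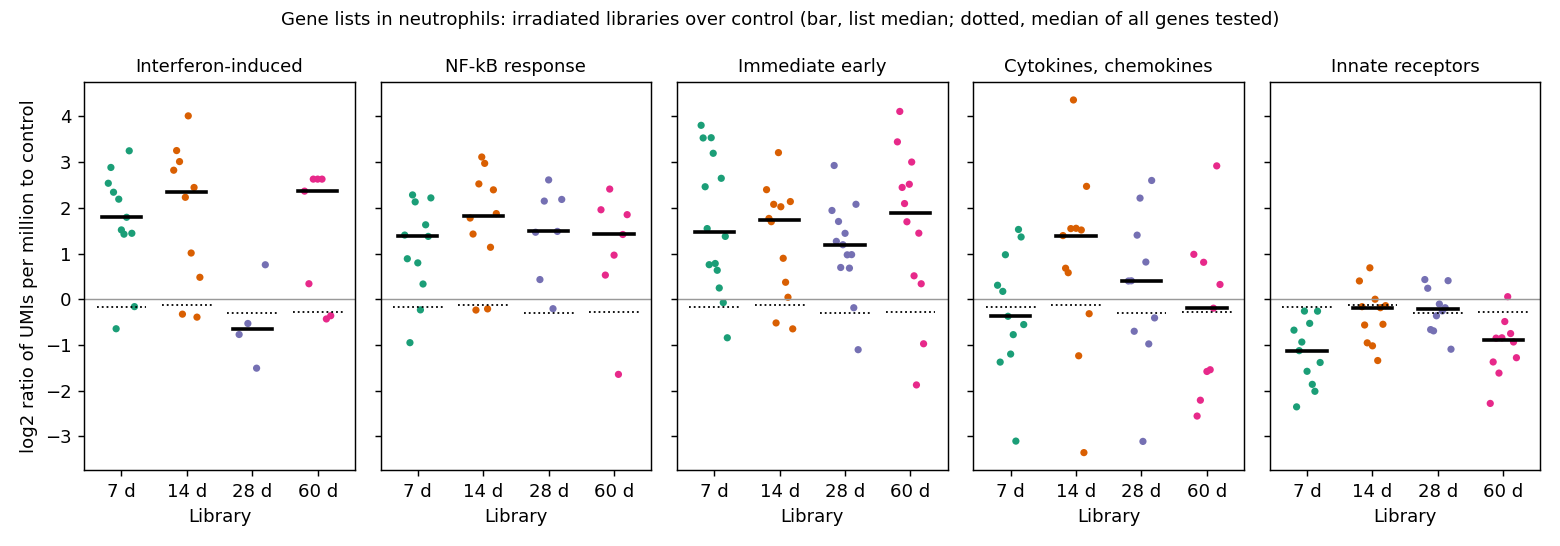
Log2 ratio of CPM in neutrophils of each irradiated library over control (y axis) for the tested genes of 5 lists, 1 point per gene, with the list median as a bar and the median of all genes tested as a dotted line. Interferon-induced genes have medians of 1.79, 2.34, -0.65 and 2.37 at 7, 14, 28 and 60 d, while innate receptors have medians of -1.12, -0.18, -0.22 and -0.89.

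Innate receptors of the neutrophil surface were lower than control more often than all genes at 7 d, and none was 2-fold higher in any library. At 7 d 6 of 11 tested genes were at least 2-fold lower (17.5% over all genes; median -1.12), at 14 d 2 of 11 (23.9%; -0.18), at 28 d 1 of 10 (20.8%; -0.22) and at 60 d 4 of 10 (22.8%; -0.89). Without the collagen-rich members the 7 d median was -0.59, with 4 of 10 lower, and centred on the median of all genes the 28 d median was 0.09. Without the receptor condition 3 of 14 were 2-fold higher at 14 d and 1 of 12 at 28 d. Trem1, an amplifier of inflammatory signals, had 1076 CPM in control, 211 CPM at 7 d, 962 CPM at 14 d, 1272 CPM at 28 d and 416 CPM at 60 d. Il1r2, the decoy receptor of interleukin-1, had 1093 CPM in control, 271 CPM at 7 d, 962 CPM at 14 d, 1449 CPM at 28 d and 572 CPM at 60 d. Over all members both were low at 7 and 60 d, and their 7 d levels without the collagen-rich members are not given here. Clec4d had 2388 CPM in control, 1248 CPM at 7 d, 1233 CPM at 14 d, 1479 CPM at 28 d and 780 CPM at 60 d.

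Among other receptors, Cxcr4 was above control only at 60 d, while Hcar2 was above control in each irradiated library. Cxcr4, which binds Cxcl12 and is known from mice to hold neutrophils in the marrow, had 336 CPM in control, 271 CPM at 7 d, 222 CPM at 14 d, 266 CPM at 28 d and 1612 CPM at 60 d, where 10 of 13 members had a UMI. It was 4.79-fold control there (2.65 to 8.87). Hcar2, a receptor for hydroxybutyrate, had 118 CPM in control, 346 CPM at 7 d, 666 CPM at 14 d, 355 CPM at 28 d and 1352 CPM at 60 d. Itgb2, the beta 2 integrin chain, had 605 CPM in control, 226 CPM at 7 d, 173 CPM at 14 d, 177 CPM at 28 d and 104 CPM at 60 d, below control throughout.

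By size alone the genes furthest above control at 7 d were Ccn3, Fos, Pcolce, Egr1, Fosb and Mdm2. That list turned on collagen-rich members, of which 1 held 346 of 422 Fos UMIs and 1 held 29 of 31 Ccn3 UMIs. Without the collagen-rich members the log2 ratio was 0.08 for Mdm2 in place of 3.41, 0.56 for Pcolce and 1.56 for Ccn3, but still 2.15 for Fos, 3.05 for Egr1 and 2.56 for Fosb. Mdm2 is the p53-induced ligase that degrades p53, and in members other than those it had 138 CPM at 7 d against 130 CPM in control. The genes furthest below control at 7 d were Gpnmb, Tpd52, Ccl6, Mmp8, Gnai3 and Cox17. Gpnmb, a lysosomal membrane glycoprotein, had 60.2 CPM at 7 d against 706 CPM in control.

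At 14 d the furthest above control were Cd74, Cxcl3, Hk2, Irf1, Ca4 and Arl5b. Cd74, the invariant chain of MHC class II, came from 1 member with 4.12% MHC class II RNA, and without it the log2 ratio was -0.26. Hk2 (hexokinase 2) had 1135 CPM in 10 of 20 members at 14 d, against 67.3 CPM in control, and at 28 d it had 769 CPM. The furthest below control at 14 d were Txn1, Txnip, Ccl6, Laptm5, Tnfaip8 and Itm2b. Txnip, an inhibitor of thioredoxin and of glucose uptake, had 622 CPM in control, 180.5 CPM at 7 d, 49.3 CPM at 14 d, 88.7 CPM at 28 d and no UMI at 60 d.

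At 28 d the furthest above control were Ly6al, Arl5b, Hk2, Ppp1r15a, Fosb and Ier3. Ly6al had no UMI in control and 917 CPM at 28 d, at least 18.2-fold higher with 3 control counts as the floor. It was seen in 3 of 28 members there, and 1 of them held 24 of the 31 UMIs. Ppp1r15a, which ends the integrated stress response, had 219 CPM in control, 1384 CPM at 7 d, 1529 CPM at 14 d, 1715 CPM at 28 d and 520 CPM at 60 d. The furthest below control at 28 d were Cox17, Ccl2, Tnfaip8, Spi1, Emp3 and Txnip. Ccl2 had 828 CPM at 28 d against 7147 CPM in control, and in other barcodes it had 286 CPM at 28 d against 6680 CPM in control, so both were lower at 28 d. Spi1, the myeloid transcription factor PU.1, had 471 CPM in control, 165 CPM at 7 d, 148 CPM at 14 d, 59.2 CPM at 28 d and 104 CPM at 60 d.

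At 60 d the furthest above control were Fosb, Hcar2, Fos, Atf3, Osm and Tagap, and the furthest below were Stfa2, N4bp1, Plaur, Riok3, Nabp1 and Plin2. Plaur, the urokinase receptor, had 488 CPM in control, 331 CPM at 7 d, 321 CPM at 14 d, 207 CPM at 28 d and 52.0 CPM at 60 d, the last from 1 UMI. Plin2, the coat protein of lipid droplets, had 1883 CPM in control, 1399 CPM at 7 d, 493 CPM at 14 d, 769 CPM at 28 d and 260 CPM at 60 d. Stfa2, a cystatin-type protease inhibitor, had 259 to 4478 CPM in other barcodes, so it was not confined to members.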

How the data were processed

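Per the submitters' processing notes, reads were handled by the authors with Cell Ranger 5.0.0 and STAR against Rnor_6.0, and with Seurat 3.1.1. The deposited matrices hold raw UMI counts per gene and barcode, with no normalization. Rows that share a symbol were summed. The members and the gene lists (424 symbols, 399 found) were chosen with earlier results of these data known. Shares have Clopper-Pearson intervals, levels Poisson intervals and ratios conditional binomial intervals (95%, counting error only), and intervals of share differences combine both exact intervals. A count of 0 entered a ratio as 3 counts. Python 3.11.15, numpy 2.4.6, scipy 1.17.1 and pandas 2.3.3 were used, and the ratio was tested on simulated data. Named genes were the 6 highest and 6 lowest log2 ratios in each irradiated library, among genes with 30 UMIs over both libraries, a UMI in 10% of the members of the library where the gene was higher and a level there not below that of the other barcodes, without mitochondrial, ribosomal protein, unnamed and selection genes. The 12 genes furthest above C1q-positive cells (3 C1q UMIs or more and no Cd3 UMI) needed 100 UMIs, and 1 of them is not reported here. The planned minimum of 30 members per irradiated library was met by none, so 10 were asked for. Other genes of the text came from the lists. Alternatives changed the limits on depth, mitochondrial share, markers and counts, the scaling, and the collagen-rich or MHC class II-rich members.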

Additional observations from a re-analysis of the deposited data

How the results depend on the processing

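No paired analysis was possible because each group has 1 library and its replicate number is only a name. The share of neutrophils depended on the rule. Without the receptor condition the differences from control were -0.406 points at 7 d, 2.001 points at 14 d, 0.582 points at 28 d and -0.558 points at 60 d, and with S100a8 and S100a9 also at 2% or more, with or without 3 other markers, they were -0.385, 0.952, 0.302 and -0.486 points. With at least 2 receptor UMIs the 7 d difference was -0.0376 points, and with keratins under 3% the 28 d difference was 0.173 points. With S100a8 and S100a9 at 2% or more and the receptor condition kept, the 28 d share was 0.210%, against 0.305% in control. With 3 other markers in place of the rule's genes the differences were 4.88 points at 7 d (opposite in direction), -1.09 points at 14 d, -2.82 points at 28 d and -4.73 points at 60 d. In control 18.5% of collagen-rich cells, which the rule's limits do not remove, had 3 of these markers. With at least 1 UMI in place of 30, the share of genes 2-fold lower was 30.3% at 7 d, 9.004% at 28 d and 5.15% at 60 d, and the share 2-fold higher was 36.9% at 14 d, 38.7% at 28 d and 59.3% at 60 d. Without collagen-rich members 12.3% of genes were higher at 7 d. Medians that changed sign were innate receptors at 28 d (0.087) and cytokines at 60 d (0.078) after centring on all genes, cytokines at 60 d with at least 1 UMI (0.32) and interferon genes at 28 d with at least 100 UMIs (0.11), and Cd74 at 14 d had -0.26 without the MHC class II-rich member. The cause was not tested. The settings that left out collagen-rich members, limited keratins to 3%, or dropped the receptor condition with S100a8 and S100a9 at 2% were chosen after seeing the data. With 19234 UMIs at 60 d, a count of 0 has an interval up to 192 CPM, and the floor of 3 counts is 156 CPM.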

Other observations

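Heat shock genes were at least 2-fold higher for 4 of 6 tested genes at 7 d (18.8% over all genes; median log2 ratio 1.22) and for none of 5 at 14 d. In other kept barcodes the list summed to 16386 CPM at 7 d against 10225 CPM in control. Hspa1b, an inducible chaperone, had 2166 CPM at 7 d against 235 CPM in control, but 220 CPM against 205 CPM without the collagen-rich members. Of the NADPH oxidase list, which makes the oxidative burst, 3 genes at most were tested in a library, and none was 2-fold higher. Cyba, the small membrane subunit, had 925 CPM in control, 632 CPM at 7 d, 395 CPM at 14 d, 592 CPM at 28 d and 1092 CPM at 60 d. At 7 d Cyba had 992 CPM without the collagen-rich members, against 968 CPM in control. Among genes of leukotriene synthesis, Lta4h had 1040 CPM at 60 d against 336 CPM in control, and Alox5ap had 1612 CPM at 60 d against 959 CPM in control. Bcl2a1, an inhibitor of cell death, had 3447 CPM in control, 737 CPM at 7 d, 5697 CPM at 14 d, 3756 CPM at 28 d and 1404 CPM at 60 d. Over all members Bcl2a1 was low in the same libraries as Trem1 and Il1r2. Mki67, a marker of dividing cells, had a UMI in 1 member.

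Barcodes that met every other condition of the rule, had S100a8 and S100a9 at 2% of UMIs or more and lacked a receptor UMI numbered 173, more than the members themselves. Each of them had at least 3 of the other neutrophil genes, and G0s2 was seen in 33 of 35 in control, 14 of 14 at 7 d, 51 of 54 at 14 d, 65 of 67 at 28 d and 3 of 3 at 60 d.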
